A study of Mus musculus with 4 samples.

Results

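The 9 genes described here are 4 membrane-anchored proteases of the ADAM family (Adam9, Adam10, Adam12 and Adam17), 2 matrix metalloproteases (Mmp2 and Mmp14) and 3 tissue inhibitors of metalloproteases (Timp1, Timp2 and Timp3). They were taken as every probe set of the arrays annotated with 1 of these symbols, which gave 14 probe sets, of 10814 that carry a single symbol for 8236 genes. The genes were chosen by their role in pericellular proteolysis with the signal differences between Nurr1-labelled and control clones on these arrays known, so the values that compare Nurr1-labelled with control clones are a description of the genes.

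All samples were clonal derivatives of c17.2, an immortalised neural stem cell line of the mouse, kept in proliferating conditions. Total RNA of each was extracted and measured on 1 Affymetrix array. Clone 42 and clone 48 carried a stable Nurr1 transfection, and puroB and puroD the empty puromycin vector. The sample descriptions match clone 42 with puroB and clone 48 with puroD on proliferation rate, and that pairing was used. The series' design text writes the line paired with puroD as clone 42 and abbreviates it c48, so the 2 sources conflict on that name, and all values within pairs rest on the sample descriptions. Each group therefore holds 2 clones (n = 2) with 1 array each, and a difference between clones cannot be told apart from a difference between integration events. The SEs and p-values (limma) rest on a variance drawn largely from other probe sets (1 residual degree of freedom, prior 13.1). They are therefore not the spread of the clones in a single gene, and they do not reach beyond these clones. The transfected gene could not be used to check the labels, because whether its probes cover the transgene was not analysed here: Nr4a2, which encodes Nurr1, read 320.1 (clone 42) and 206.4 (clone 48) beside 485.0 (puroB) and 254.2 (puroD) on the brighter of its probe sets. Its other probe set read 188.0 (clone 42), 113.5 (clone 48), 371.9 (puroB) and 213.2 (puroD). Both probe sets were thus lower in the Nurr1-labelled clone of each pair, with mean log2 differences of -0.45 and -0.95 (limma adjusted p = 0.871 and 0.453). The lines are therefore named here by label, as Nurr1-labelled clones.

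ADAM and matrix metalloproteases are zinc-dependent proteases of the cell surface and the pericellular matrix. ADAMs cleave membrane proteins close to the membrane and release their ectodomains; Adam10 performs the cleavage that precedes Notch signalling, and Adam17 releases tumour necrosis factor and ligands of the epidermal growth factor receptor. Mmp14 is a membrane-type protease that, with Timp2 as a bridge, activates secreted Mmp2, which degrades basement membrane collagen. TIMPs block the active site of these proteases, and Timp3 differs from the others by binding to the extracellular matrix and by inhibiting several ADAMs.

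Signals are MAS5 intensities. Controls for transcripts that were not spiked in (15 probe sets per array) show what background looks like on this scale. Their median lay between 6.0 and 9.0, and their highest value was 62.7 (clone 42), 39.1 (clone 48), 49.8 (puroB) and 59.1 (puroD). Of the 14 probe sets, 8 exceeded this highest control on all 4 arrays, 4 on no array, and 2, those of Adam12 and Adam17, on some. For tests, 8 probe sets of 7 genes were bright enough, whereas Adam17 and Mmp2 had none. Of 6 measured progenitor markers, Nes (nestin), Fabp7, Notch1 and Msi1 exceeded the highest control on all 4 arrays, Vim on 2 and Pax6 on 1. Nes lay between 3030 and 3720, whereas Fabp7, a fatty acid binding protein of radial glia, read 564.5 (clone 42), 157.3 (clone 48), 1292.5 (puroB) and 1539.0 (puroD), with log2 differences of -1.20 and -3.29 (limma adjusted p = 0.0503). Fabp7 was thus lower in both Nurr1-labelled clones, as was Adam12, and its part in the differences described here was not tested. Of 6 microglia and macrophage markers, Cd68, C1qb, Cd14 and Csf1r exceeded the highest control on all 4 arrays (Cd14 between 170.7 and 329.8) and Ptprc and Aif1 on none, with a summed signal of the list between 530.2 and 806.7 in the Nurr1-labelled clones and between 805.7 and 836.5 in the controls. Of 5 endothelial markers, Eng (between 3172 and 4420) and Pecam1 (between 75.2 and 158.3) did so on all 4 arrays, Kdr on 3, and Cdh5 and Tek on none, with a summed signal between 3402 and 4163 in the Nurr1-labelled clones and between 4272 and 4593 in the controls. Further marker lists are given as summed signals in the order clone 42, clone 48, puroB and puroD. Fibroblast and mesenchymal markers came to 3320, 1354, 957 and 1779. Most of this sum was Col1a2, with 2690.6, 1007.2, 524.3 and 1053.9. Pdgfrb and Thy1 were likewise highest in clone 42, but Col1a1 and Dcn in puroD and Lum in puroB, so these markers do not go one way. Astrocyte markers came to 1734, 713, 1060 and 744, and oligodendrocyte markers to 225, 287, 376 and 286. Most of the astrocyte sum was S100b, with 1600.8, 509.5, 735.9 and 625.8. Gfap was highest in clone 48 (133.2) and Aldoc in puroB (197.0), so the astrocyte markers do not go one way either. RNA was extracted in bulk, so fewer cells that express a gene and less RNA per cell cannot be told apart.

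**Figure D1:**
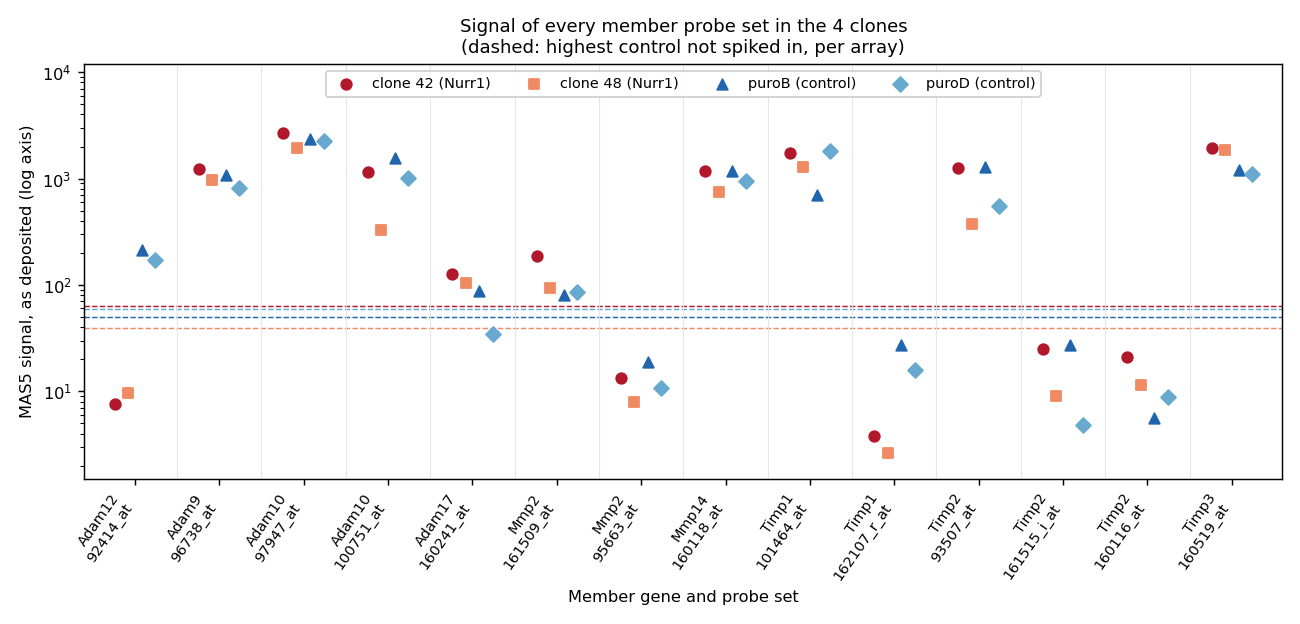
MAS5 signal as deposited (log axis) of each of the 14 probe sets in clone 42, clone 48, puroB and puroD, 1 array each. Dashed lines mark the highest control not spiked in on each array, from 39.1 to 62.7. Adam12 lies under these lines in both Nurr1-labelled clones and above them in both control clones, and the second Mmp2 probe set, 1 of Timp1 and 2 of Timp2 lie under them everywhere.

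Adam12, a protease of developing muscle and mesenchyme that has a catalytic domain and a cell-binding disintegrin domain, had signal in the control clones and none above background in the Nurr1-labelled clones. Its only probe set (92414_at) read 7.6 (clone 42) and 9.6 (clone 48), and the controls read 213.8 (puroB) and 171.8 (puroD). On clone 42, 9 of the 15 controls not spiked in were at or above its signal, and on clone 48, 4 of 15. In puroB and puroD it stood at the 54.9th and 52.7th percentile of all gene probe sets, so that it was of middling brightness there. Taking the highest control not spiked in on the Nurr1-labelled array as the level it could have reached, Adam12 was at least 3.41-fold lower in clone 42 than in puroB and at least 4.39-fold lower in clone 48 than in puroD. Between puroB and puroD the ratio was 1.24.

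In the fit across all 6419 tested probe sets, which takes signals under 40.3 as 40.3 (the 30th percentile of all values), the mean log2 difference of Adam12 was -2.25 ± 0.53 (SE, n = 2; limma with Benjamini-Hochberg adjustment, adjusted p = 0.113). This fitted value depends on that floor and is not a bound. Adam12 entered the fit only through the 2 control arrays, where it exceeded the median of all values, 145.1, and the gene was chosen with this contrast known, so its p-value is not a test of the difference. Over the 11 alternatives in which it could be fitted the adjusted p ran from 0.0336, without the intensity trend in the variance, to 1.00 (limma).

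The probe sets whose log2 profile over the 4 arrays lay closest to that of Adam12 belonged to Gnai1, an inhibitory G protein subunit, Traip, a ubiquitin ligase, and Col11a1, a fibrillar collagen chain, at Euclidean distances of 0.42, 0.47 and 0.56. Signals of Gnai1 were 9.2 (clone 42), 59.4 (clone 48), 255.4 (puroB) and 187.3 (puroD). Those of Col11a1 were 13.4, 62.6, 311.2 and 282.1 in the same order. Those of Traip were 61.5, 44.8, 212.8 and 223.2 in that order. Gnai1 and Col11a1 shared with Adam12 a signal under the floor in clone 42. Adam12 was under the floor in clone 48 as well, so that each of these distances, also that to Traip, rests partly on the floor.

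Adam10, the sheddase of Notch receptors and N-cadherin, was measured by a pair of bright probe sets that did not give the same picture. The brighter, 97947_at, read 2680.1 (clone 42), 1945.0 (clone 48), 2349.2 (puroB) and 2266.7 (puroD), a span of 1.38-fold that put it at the 25.0th percentile of tested probe sets. The dimmer, 100751_at, read 1153.0 (clone 42), 327.7 (clone 48), 1553.4 (puroB) and 1015.1 (puroD). Here clone 48 stood apart from the other 3 clones, 3.10-fold under puroD and 3.52-fold under clone 42, and the span of 4.74-fold lay at the 98.1th percentile. The log2 differences of the pairs were -0.43 and -1.63 for the dimmer and 0.19 and -0.22 for the brighter probe set.

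Divided by the dimmer, the brighter Adam10 signal came to 2.32 (clone 42), 5.94 (clone 48), 1.51 (puroB) and 2.23 (puroD). Actin transcripts, whose 3' over 5' signal rises with RNA breakdown, had quotients from 1.51 to 2.41 that were likewise highest in clone 48 and lowest in puroB. Those of Gapdh were closer together, with 0.94 (clone 42), 1.24 (clone 48), 0.86 (puroB) and 0.97 (puroD). In both control transcripts puroD lay above clone 42, unlike in the Adam10 quotient. The stretch of transcript behind each Adam10 probe set was not analysed here, and the part of RNA integrity in the disagreement was not tested. For the dimmer probe set the mean difference was -1.03 ± 0.34 (SE, n = 2; limma adjusted p = 0.345). Without clone 48 it was -0.12, and without clone 42 it was -1.94, which passed (limma adjusted p = 0.0325, in a fit where the lone Nurr1-labelled clone is assumed to vary like the controls; over all alternatives the adjusted p ran from 0.0325 to 1.00).

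Adam9, a widely expressed ADAM, varied little, with a span of 1.49-fold at the 38.1th percentile of tested probe sets. Within that span Adam9 followed the pairs more than the label. Its signals (96738_at) were 1218.7 (clone 42) and 1077.9 (puroB) in the first pair and 963.2 (clone 48) and 818.1 (puroD) in the other, so that the 2 arrays of the first pair lay above the 2 of the other. Within the pairs the Nurr1-labelled clone had 0.18 and 0.24 more on the log2 scale (mean 0.21 ± 0.30, SE, n = 2), less than the 0.40 between puroB and puroD and the 0.34 between clone 42 and clone 48.

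Adam17, the tumour necrosis factor convertase, was dim on every array. Its signals (160241_at) were 126.9 (clone 42), 104.2 (clone 48), 87.5 (puroB) and 34.8 (puroD), the last at background for that array. Both Nurr1-labelled clones lay above both controls, by 1.45-fold in the first pair. No size is given for the other pair, because puroD was at background. The probe set was not tested.

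Mmp14, the membrane-type protease that activates pro-Mmp2, had signals (160118_at) of 1185.4 in clone 42 and 1188.2 in puroB, and of 754.4 in clone 48 and 947.9 in puroD. The first pair was level (log2 difference -0.0035), and in the other the Nurr1-labelled clone had 0.33 less. Its mean of -0.17 ± 0.30 (SE, n = 2) was smaller than the difference of 0.65 between clone 42 and clone 48, and turned to 0.16 without clone 48.

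Mmp2, the gelatinase that Mmp14 activates, was seen by 1 of its 2 probe sets. Probe set 161509_at read 185.9 (clone 42), 92.6 (clone 48), 79.9 (puroB) and 85.7 (puroD). Clone 42 stood above the other 3 clones, 2.33-fold over puroB, whereas clone 48 and puroD differed by 1.08-fold. Probe set 95663_at lay between 8.0 and 18.9 on all arrays, at the level of the controls not spiked in, and neither was bright enough on enough arrays to be tested.

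The 3 inhibitors varied over the clones in 3 different ways. Promoter windows are shown for them because the series concerns a DNA-binding receptor and because they are the inhibitors whose patterns are set against each other here. Each is the 250 bases before the annotated start, read 5' to 3' on the strand of the gene, from RefSeq on build GRCm38.p6, with GC boxes (GGGCGG on either strand) in capitals.
Timp1, chrX:20869916-20870165, plus strand: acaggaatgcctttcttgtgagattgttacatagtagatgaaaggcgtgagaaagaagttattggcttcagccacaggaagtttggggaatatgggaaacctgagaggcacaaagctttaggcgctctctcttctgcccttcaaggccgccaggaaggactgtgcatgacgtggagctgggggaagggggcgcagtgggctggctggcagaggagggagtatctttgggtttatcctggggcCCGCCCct
Timp2, chr11:118355412-118355661, minus strand: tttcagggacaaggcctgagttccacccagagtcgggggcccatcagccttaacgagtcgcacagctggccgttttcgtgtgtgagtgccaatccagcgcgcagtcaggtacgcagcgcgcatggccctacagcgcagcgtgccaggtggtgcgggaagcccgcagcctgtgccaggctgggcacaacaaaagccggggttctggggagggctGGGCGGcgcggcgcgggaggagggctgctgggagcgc
Timp3, chr10:86300162-86300411, plus strand: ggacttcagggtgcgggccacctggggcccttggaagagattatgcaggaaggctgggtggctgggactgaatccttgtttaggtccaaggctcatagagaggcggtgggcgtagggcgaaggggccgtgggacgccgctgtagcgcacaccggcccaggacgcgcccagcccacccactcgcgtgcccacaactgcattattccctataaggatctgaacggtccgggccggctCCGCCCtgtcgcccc

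Such windows were at hand for 6 of the 9 genes (Adam10, Adam17, Mmp14 and the 3 TIMPs). The monomer site bound by Nurr1 (AAAGGTCA, either strand) was in 0 of the 6 and in 1.34% of all 32851 windows of that length, and the AP-1 site (TGACTCA, either strand) in 0 of the 6 and in 4.46% of all. At least 1 GC box was in all 6 and in 32.7% of all windows. It was looked for after the windows had been read. Further motifs were searched without having been planned. The TATA box (TATAAA, either strand) was in 0 of the 6 and in 12.4% of all windows. The Ets core (GGAAGT, either strand) was in 1 of the 6, that of Timp1, and in 19.7% of all. The GC content of the 6 windows, from 54.4% to 74.0%, was above the median of all windows, 52.4%. A match or its absence describes these letters only.

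Timp3, the matrix-bound inhibitor, was higher in both Nurr1-labelled clones than in both controls. Its signals (160519_at) were 1951.2 (clone 42), 1840.1 (clone 48), 1208.6 (puroB) and 1096.5 (puroD). Its log2 differences of 0.69 and 0.75, or 1.61-fold and 1.68-fold, exceeded the 0.14 between the control clones and the 0.085 between the Nurr1-labelled clones. The mean was 0.72 ± 0.31 (SE, n = 2; limma adjusted p = 0.581), and between 0.65 and 0.79 with any 1 array left out. Groups without overlap were common over the whole table, with 30.6% of tested probe sets (12.8% with the Nurr1-labelled clones higher and 17.9% lower). Of the 8 tested here, 2 were among them, Adam12 and Timp3. Adam12 was bright enough to be tested only on the control arrays, which fixed its place among them. Nothing is therefore read from this count.

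Profiles closest to Timp3 were those of the transcription factors Pax3 and Hlx, at distances of 0.06 and 0.08, and of Reep5, a protein that shapes the endoplasmic reticulum, at 0.07. The 5 neuronal markers were Tubb3, Nefl, Nefm, Map2 and Snap25. Their summed signal was also higher in the Nurr1-labelled clones, with 6621 and 5354 against 3114 and 3142. Most of this sum was Tubb3, with 5688.0 (clone 42), 4632.6 (clone 48), 2703.2 (puroB) and 2703.6 (puroD). Nefl and Nefm were also higher in both Nurr1-labelled clones. Map2, a dendritic protein, went the other way, with 198.1 and 120.3 in the controls and 45.8 and 4.2 in clone 42 and clone 48. Snap25, a synaptic protein, was above background on no array. These markers thus do not go one way, and whether neuronal cells had a part in the Timp3 difference was not tested.

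Timp1, a secreted inhibitor induced by growth factors and cytokines in many cells, turned its direction between the pairs. Its signals (101464_at) were 1738.1 in clone 42 and 693.7 in puroB, against 1275.5 in clone 48 and 1809.3 in puroD. The array that stood apart was puroB, the lowest, while the other 3 lay within 1.42-fold of each other. Clone 42 was 2.51-fold higher than its control and clone 48 had 0.50 less on the log2 scale, whereas the control clones differed by 2.61-fold. The mean of 0.41 ± 0.39 (SE, n = 2) was -0.28 without puroB. A further Timp1 probe set (162107_r_at) lay between 2.6 and 27.2, under the highest control on every array.

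The closest profiles to Timp1 belonged to Vmp1, an autophagy membrane protein, at a distance of 0.14, Fcf1, a ribosome processing factor, at 0.15, and the splicing factor Sf3b6 at 0.17. Like Timp1 they were lowest in puroB, with signals of 1775.3, 724.1 and 1269.5 there and of 4293.4, 2144.7 and 3473.7 in puroD.

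Timp2, the inhibitor that also bridges Mmp14 and pro-Mmp2, differed more between the pairs than within them. Its bright probe set (93507_at) gave 1268.6 in clone 42 and 1278.2 in puroB, against 375.1 in clone 48 and 552.8 in puroD. Both arrays of the first pair lay above both of the other, by 2.31-fold between the control clones and 3.38-fold between the Nurr1-labelled clones. Within the pairs the log2 differences were -0.011 and -0.56, with a mean of -0.29 ± 0.30 (SE, n = 2) that turned to 0.59 without clone 48 and to 0.32 without puroB. Its span of 3.41-fold stood at the 95.4th percentile of tested probe sets. The array order, highest first, was puroB, clone 42, puroD and clone 48, as for Mmp14 and the dimmer Adam10 probe set. Along that order the quotients of the actin and Gapdh control transcripts rose. Adam12, Adam9, the brighter Adam10 probe set, Timp1 and Timp3 had other orders. The part of RNA integrity in these patterns was not tested. The other 2 Timp2 probe sets lay between 4.8 and 27.2, under the highest control on every array. The nearest profiles were those of Nme1, a nucleoside diphosphate kinase, Sec23a, a coat protein of transport vesicles, and Itih5, a matrix protein, at distances of 0.15, 0.21 and 0.23.

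**Figure D2:**
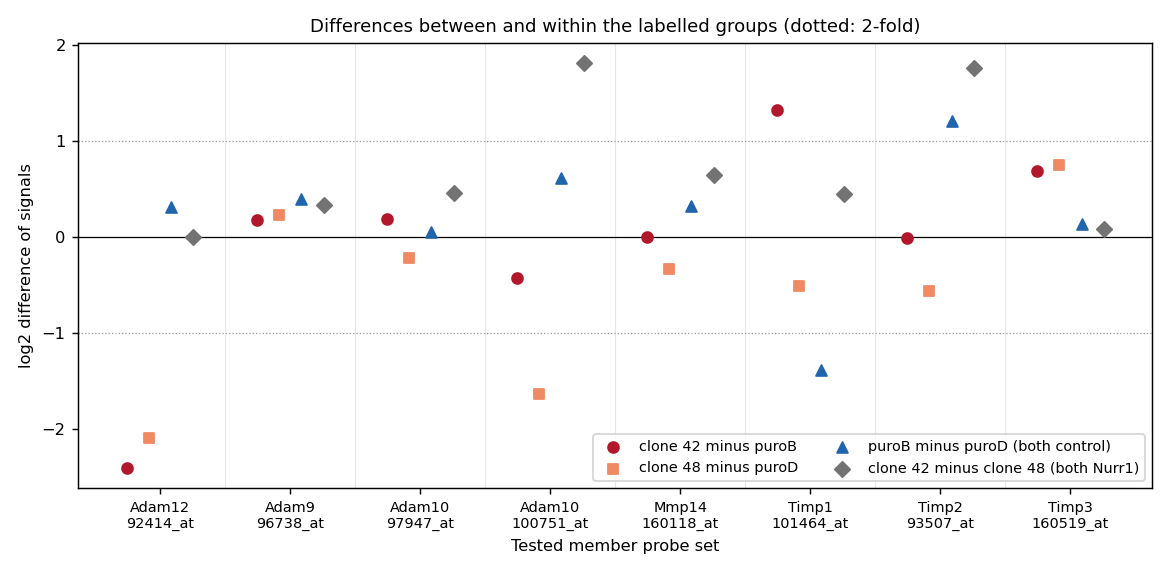
Log2 difference of signals, on the scale with the floor, for the 8 tested probe sets. Circles and squares are the matched pairs (clone 42 minus puroB, clone 48 minus puroD), triangles compare the control clones and diamonds the Nurr1-labelled clones, with dotted lines at 2-fold. Adam12 and Timp3 are the probe sets whose pair differences are both larger than those between clones of the same label, whereas Timp1 and Timp2 differ by more than 2-fold between the control clones.

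Set against all tested probe sets, differences between clones of the same label were as frequent among these genes as differences within the matched pairs. A difference of 2-fold or more was seen in 2 of 8 probe sets between clone 42 and puroB (Adam12 and Timp1; 8.35% of all tested), in 2 between clone 48 and puroD (Adam12 and the dimmer Adam10; 5.39% of all), in 2 between puroB and puroD (Timp1 and Timp2; 6.06% of all) and in 2 between clone 42 and clone 48 (the dimmer Adam10 and Timp2; 10.7% of all). Clone 48 was the lowest array in 4 of 8 probe sets (both of Adam10, Mmp14 and Timp2) and the highest in 0, where it was lowest in 28.1% and highest in 22.5% of all tested. PuroB was the highest in 4 of 8 (29.2% of all tested). As Adam12 was bright enough to be tested only on the control arrays, nothing is read from its part in these counts. The median span from the lowest to the highest array was 2.19-fold over the 8 and 1.60-fold over all tested probe sets.

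In the whole-table fit 0 of the 8 passed (limma, Benjamini-Hochberg adjusted p from 0.113 to 0.9998), where 7 of 6419 did, or 0.109% (higher 0.0623% and lower 0.0467%). At an unadjusted p under 0.05 there were 3 of 8 (Adam12, the dimmer Adam10 and Timp3), where 7.38% of all tested probe sets had one. The genes were chosen with this contrast known, so nothing is read from these shares. With each gene at its brightest tested probe set, Adam9 and Timp3 (2 of 7) lay above their controls in both pairs and 3 of 7 (Adam12, Mmp14 and Timp2) below, and the median log2 difference was -0.015, beside -0.038 over all tested probe sets.

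**Figure D3:**
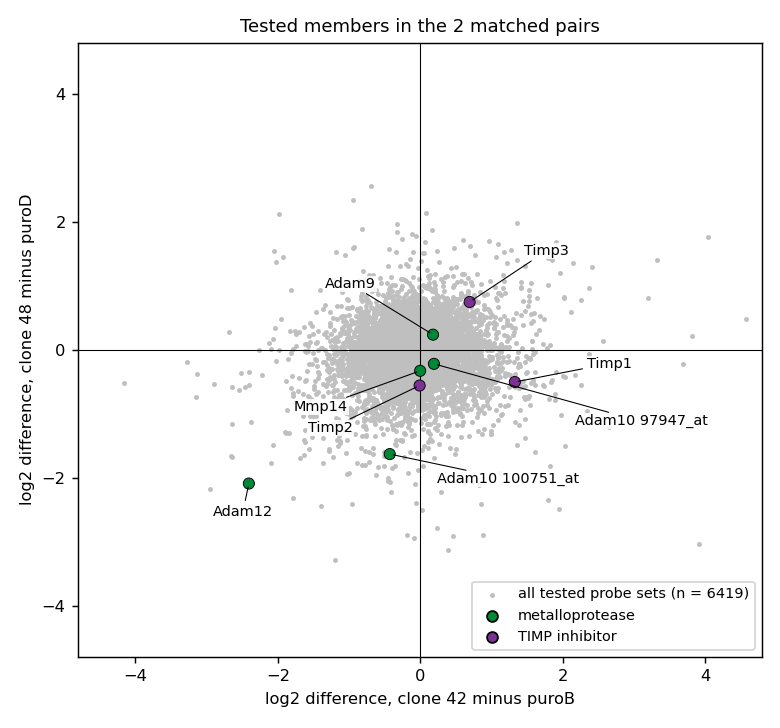
Log2 difference in the first matched pair (clone 42 minus puroB, horizontal) against the other (clone 48 minus puroD, vertical) for all 6419 tested probe sets in grey, with the 8 probe sets of the proteases (green) and TIMPs (purple). Adam12 lies at -2.41 and -2.09 with both Nurr1-labelled arrays at the floor, Timp3 at 0.69 and 0.75, and Timp1 at 1.33 and -0.50.

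Other genes of pericellular proteolysis were followed in 10 lists of 159 genes, of which 136 had a probe set and 78 were tested. Of these 78, 1 passed, where 7 of 6419 tested probe sets did, or 0.109%. It was the matrix glycoprotein gene Tnc, which rose (limma adjusted p = 0.0487). This call was lost where 0 probe sets passed, as without the pair as a block or without puroB. In both pairs 14 were higher, or 17.9%, where 21.7% of all tested probe sets were, and 26 were lower, or 33.3%, where 29.7% of all were. The same shares over all tested probe sets stand beside the counts of each list below. The lists were chosen with earlier results of these data known, so nothing is read from their counts.

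Most other family members were at background. Of 10 other matrix metalloproteases, 8 exceeded the highest control not spiked in on no array, among them Mmp9, with signals between 12.2 and 19.4, and Mmp13, between 16.1 and 26.9. Mmp17, a membrane-type protease, was the 1 tested, with 849.6 and 397.2 in clone 42 and clone 48 and 706.3 and 518.0 in puroB and puroD, opposite in the pairs at 0.27 and -0.38. Of 12 other ADAM genes 6 were tested, 0 passed, and 2 were lower in both pairs: Adam23, a neural ADAM without protease activity, at -0.63 and -0.52, and Adam19 at -0.37 and -0.17. The list median was -0.23. Adamts1, the 1 ADAMTS gene, was above background on no array.

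Of the other inhibitors, Reck, a membrane-anchored inhibitor of matrix metalloproteases and Adam10, had 253.0 and 231.4 in clone 42 and clone 48, against 490.4 and 314.3 in puroB and puroD. Both Nurr1-labelled clones lay under both controls, opposite to Timp3, with log2 differences of -0.95 and -0.44 (mean -0.70 ± 0.31, SE; limma adjusted p = 0.604). Among 11 tested activators and partners, 0 passed, 2 had the Nurr1-labelled clone above its control in both pairs and 4 had it below. Furin, the convertase that removes the prodomain of Mmp14 and of ADAMs, had 0.28 and 0.60, Cav1, which organises membrane caveolae, 0.60 and 0.54, the convertase Pcsk6 -0.95 and -0.94, and Cd44, a hyaluronan receptor that anchors Mmp14, -0.61 and -0.81.

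Of 6 tested membrane and astacin proteases 0 passed. Bmp1, the procollagen C-proteinase, gave 910.9 and 1030.4 in clone 42 and clone 48 against 316.9 and 606.4 in puroB and puroD, with log2 differences of 1.52 and 0.76 (mean 1.14 ± 0.30, SE; limma adjusted p = 0.183), beside a difference of -0.94 between puroB and puroD. Of 4 tested genes of the plasminogen activator system, 0 passed and the urokinase receptor Plaur was the 1 higher in both pairs (0.33 and 0.42), and the serpin Serpinf1 had 0.03 and -2.51.

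Of 20 tested shedding substrates 8 were lower and 1 higher in both pairs, 0 passed, and the median was -0.24. Notch1 and Notch2, which Adam10 cleaves, had -0.44 and -0.33 and -0.92 and -0.42. The amyloid precursor-like Aplp2 had -1.30 and -0.66 and App itself 0.19 and -0.01, and the growth factor binding protein Igfbp3 had -0.76 and -1.34. Of 15 tested matrix substrates, 2 were higher and 6 lower in both pairs. Tnc had 4.04 and 1.76 and Col3a1, a fibrillar collagen, 1.96 and 1.20 (limma adjusted p = 0.0853), whereas the basement membrane collagen Col4a1 had -1.65 and -0.70 and the laminin chain Lamb1 -0.76 and -0.98. Of 13 tested AP-1, Ets and NF-kB factors 0 passed, with 6 above and 3 below their controls in both pairs. Of these, Atf3 had 1.21 and 1.36, Jun 0.59 and 1.71, Ets2 -1.59 and -0.33 and Egr1 -0.54 and -0.37. Both Atf3 and Jun also differed between the control clones, by 1.87 and 1.54 in puroB over puroD.

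**Figure D4:**
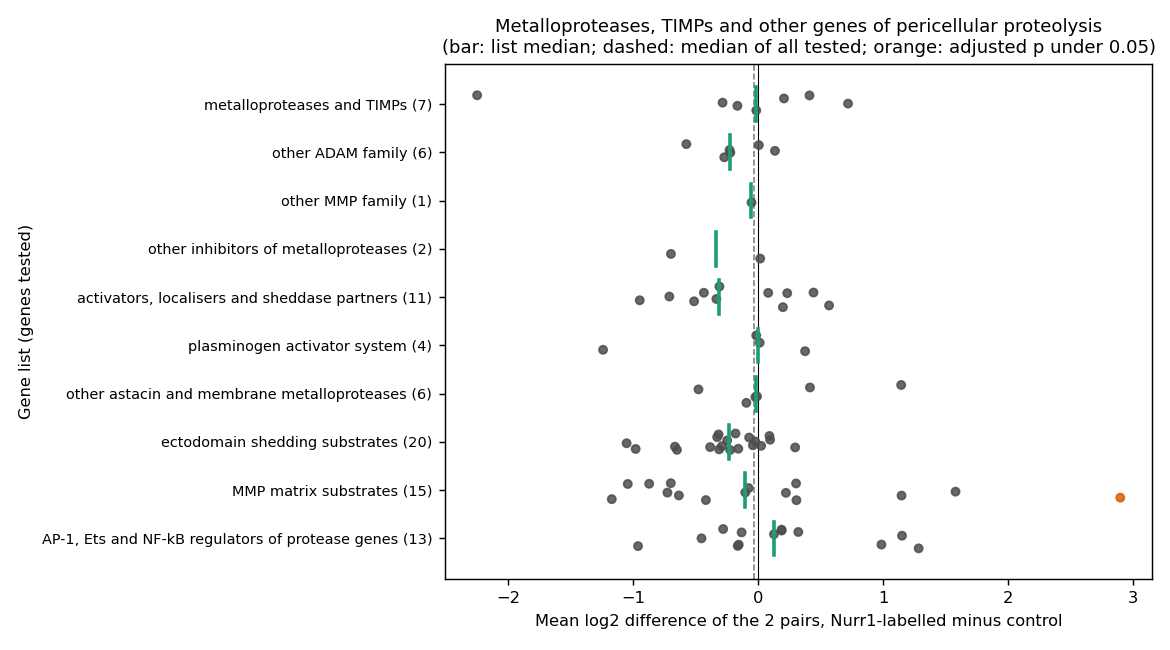
Mean log2 difference over the 2 pairs (Nurr1-labelled minus control) of each tested gene, at its brightest tested probe set, in the list of metalloproteases and TIMPs and in 9 lists of related genes with a tested member. Green bars mark list medians and the dashed line the median of all tested probe sets, -0.038. Adam12 is the leftmost point of the upper row, and Tnc, in orange, is the 1 gene with an adjusted p under 0.05.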

How the data were processed

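The authors deposited linear MAS5 intensity values, in 1 table of 12469 rows and 4 arrays. MAS5 is named in the submitters' processing notes, and its settings are not stated there. Trimmed means (2% off each end) lay between 500.4 and 500.5, so arrays had been scaled alike.

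Here each array was brought to a trimmed mean of exactly 500, values below the 30th percentile (40.3) were raised to it, and log2 was taken. Of 12403 gene probe sets (10814 with 1 symbol, 396 with several, 1193 with none), 6419 passed the median (145.1) on 2 or more arrays and were tested. limma 3.58.1 in R 4.3.3 set Nurr1-labelled against control clones, with the matched pair as a block, an intensity trend and Benjamini-Hochberg adjustment over all tested probe sets (threshold 0.05; 1 residual degree of freedom, prior 13.1). The script was tested on simulated data. The pairing is that of the sample descriptions; the paired arrays' departures from their group mean had a correlation of 0.19 over probe sets, which are not independent. Single arrays were compared by log2 ratio with no test. The labels give no date or batch. The number of arrays limits the precision.

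Symbols came from the platform annotation; 10798 of 10814 matched RefSeq genes of GRCm38.p6 by Entrez identifier, with 0 updates. The genes and lists were chosen with earlier results of these data known. Named were every probe set of the 9 genes, Nr4a2, the 3 nearest profiles (smallest Euclidean distance between log2 profiles centred on their mean over 4 arrays), and from each list the genes that passed and up to 4 in each list whose smaller pair difference was largest. Serpinf1, App, Mmp9, Mmp13 and Mmp17 were chosen after their values were seen. Protein sequences were not used here.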

Additional observations from a re-analysis of the deposited data

Results flagged for a closer look

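Timp1 (101464_at) went in opposite directions in the matched pairs, with a log2 difference of 1.33 for clone 42 minus puroB and of -0.50 for clone 48 minus puroD. The difference between the pairs was not tested. Opposite signs of any size were found in 3124 of 6419 tested probe sets, among them the brighter Adam10 probe set at 0.19 and -0.22.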

How the results depend on the processing

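The mean differences of Adam12, Adam9, Timp3 and the dimmer Adam10 probe set kept their direction under every alternative run for them. Dropping the block, the intensity trend or the filter leaves these means unchanged, so those runs could not turn them. Nor could leaving out an array turn Adam12 or Timp3, whose groups do not overlap. Adam9 was 0.0072 without puroD and 0.41 without puroB. The dimmer Adam10 probe set was -1.94 without clone 42 and -0.12 without clone 48. The adjusted p was under 0.05 for 1 of the 8 probe sets without the intensity trend (Adam12, which entered the fit only through its control arrays) and for 1 without clone 42 (the dimmer Adam10 probe set); both were chosen with this contrast known, so neither is a test. With any 1 array left out, 0 to 1 of the 8 were called, and their median difference ran from -0.25 to 0.38, the highest without clone 48. Over the whole table the 7 calls became 0 without the pair as a block (287 at an unadjusted p under 0.05), 0 with quantile normalization (375), 0 with no floor (473), 0 with no filter (560), 51 with scaling to the median (532) and 49 with the filter on all 4 arrays (449), and with 1 array left out they ran from 0 to 51 (17 without clone 42, 51 without clone 48, 0 without puroB with 203 at an unadjusted p under 0.05, and 2 without puroD). The cause was not tested. Of the 8 probe sets here 0 passed with the pair as a block and 0 without it. As 0 passed over the whole table without it, nothing is read from that. Scaling to the median moved the median of all tested probe sets by 0.17, and gave 0.15 for the brighter Adam10 probe set and 0.0028 for Mmp14, both reversed. Leave-one-out fits reversed the brighter Adam10 probe set (from -0.25 to 0.22), Mmp14 (from -0.49 to 0.16; 0.16 without clone 48), Timp1 (from -0.28, without puroB, to 1.10) and Timp2 (from -1.16 to 0.59; 0.59 without clone 48 and 0.32 without puroB). The brighter Adam10 probe set was 0.22 without clone 48 and 0.010 without puroB. Each fit with an array left out drops the pair and assumes that the lone clone varies like the others. With the filter on all 4 arrays Adam12 was not tested. Signals near the controls not spiked in limit Adam12, Adam17 and Mmp2.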

Other observations

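In the RefSeq gene table of GRCm38.p6, used for neighbours only, Timp1 lies inside the span of Syn1 and Timp3 inside that of Syn3, 2 genes of the synapsin family of synaptic vesicle proteins, and neither Syn1 nor Syn3 had a probe set annotated to it here. Timp2 holds Cep295nl within its span, whose probe set read 9.8 (clone 42), 22.8 (clone 48), 48.3 (puroB) and 52.5 (puroD), on no array above background.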
